A study of Mus musculus with 12 samples.

Results

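The 10 genes described here are 6 matrix metalloproteinases (*Mmp2*, *Mmp3*, *Mmp9*, *Mmp14*, *Mmp19* and *Mmp23*) and the 4 tissue inhibitors of metalloproteinases (*Timp1*, *Timp2*, *Timp3* and *Timp4*), found by symbol among 25124 genes of an RNA-seq table of interscapular brown adipose tissue (BAT). The list was selected on results of these data, since *Mmp23* was chosen by its TPM in the 6 libraries at 30 °C, where it was among the largest rises without *Txnip*. That contrast is therefore given below as a description, with no p-value and no call for any of the 10 genes. The tissue came from male mice at 10 weeks of age, either wild type (WT) or deficient in *Txnip* (*Txnip*-/-), a regulator of redox state and glucose uptake, on the C57B/6J background. All were acclimated for 1 week, either to 23 °C (room temperature, RT) or to 30 °C (thermoneutrality, TN). This gave 4 groups of 3 libraries, named RT WT and RT *Txnip*-/- for the cooler setting and TN WT and TN *Txnip*-/- for the warmer, and 12 libraries in all. Group values below follow that order unless named. The methods name no cell type to which the *Txnip* deletion is restricted, so a difference in this tissue cannot be assigned to adipocytes or to other cells. Nothing in the labels says which libraries came from littermates, and p-values measure the spread between these libraries, which may be technical in part.

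Metalloproteinases are zinc-dependent enzymes that cut collagens, other matrix proteins and cell surface proteins. Most are made as inactive proenzymes, and Timp proteins block the active enzymes by binding at the catalytic site. In adipose tissue, where fat cells sit in a collagen mesh, fibroblasts and macrophages make many of these enzymes, and the balance of proteases and inhibitors is one control on how the mesh is remodelled as the tissue grows or shrinks. Transcript levels do not show how much of a proenzyme has been activated.

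The libraries held between 29.9 and 47.4 reads in units of 1000000. Levels are TPM, transcript abundances corrected for transcript length and library size, so they can be set side by side for different genes. *Txnip*, the targeted gene, stood at 613 and 1131 TPM on average in WT libraries at RT and TN, and at 29.02 and 11.98 TPM in *Txnip*-/- libraries. The 8 brown adipocyte markers summed to between 16500 and 26610 TPM, most of it *Fabp4* (12336 to 18171 TPM). *Dio2*, the deiodinase of this tissue, was at only 0.571 to 3.81 TPM in the TN libraries, and 3 of the 8 markers (*Ucp1*, *Cidea* and *Dio2*) were called lower without *Txnip* at TN. Markers of other cells differed between the groups. The summed level of 8 fibroblast markers was 141 to 155 TPM in WT and 171 to 183 in *Txnip*-/- libraries at RT, and 228 to 239 and 363 to 404 TPM at TN, so the groups did not overlap. The sum of 8 macrophage markers was 61.0 to 69.9, 102 to 171, 133 to 236 and 382 to 536 TPM in the same order. Skeletal muscle markers summed to 20.3 to 50.2 TPM in RT *Txnip*-/- and to at most 16.4 TPM in any other library. Lymphocyte markers summed to 2.85 to 6.58 TPM at RT, and at TN to 5.92 to 11.2 TPM in WT and 22.6 to 28.2 TPM in *Txnip*-/- libraries. Endothelial markers summed to 261 to 341 TPM at RT and 432 to 570 TPM at TN, with 5 of 8 called higher at TN in WT and 8 of 8 in *Txnip*-/- mice. None of these markers was listed at 0 in all libraries. In bulk tissue, fewer cells of a type and less RNA per cell cannot be told apart.

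Of the 10 genes, 6 share no exon bases with another gene and lie within none. On mm10, the counted transcript of *Mmp23* (NM_001320235) spans 155650655 to 155653290 of chromosome 4 on the minus strand, that of *Mmp14* (NM_008608) spans 54431598 to 54442456 of chromosome 14 on the plus strand, and that of *Timp2* (NM_011594) spans 118301061 to 118355411 of chromosome 11 on the minus strand. *Mmp2* (NM_008610) lies on chromosome 8 from 92827297 to 92853421, *Mmp9* (NM_013599) on chromosome 2 from 164948219 to 164955850, *Mmp3* (NM_010809) on chromosome 9 from 7445822 to 7455974 and *Mmp19* (NM_001164197) on chromosome 10 from 128790910 to 128800827, all on the plus strand. *Timp1* (NM_001044384; chromosome X, 20870166 to 20874737, plus strand) sits within an intron of *Syn1*, which runs the other way. *Timp3* (NM_011595; chromosome 10, 86300412 to 86349505, plus strand) and *Timp4* (NM_080639; chromosome 6, 115244446 to 115252205, minus strand) share exon bases on the opposite strand with *Syn3* and *Syn2*. Exons of *Mmp19* share bases on the opposite strand with *Gm47093* and *Tmem198b*. Whether reads were counted by strand is not given in the sources used here, so reads of these overlapping pairs may be mixed.

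The sequences upstream of 3 genes are shown, those of *Mmp14* and *Timp2* because they were higher at TN in both genotypes, and that of *Mmp23* because it was set apart by genotype. Each is the 250 bases before a RefSeq transcript start (GRCm38.p6, the build called mm10), read 5′ to 3′ along the gene, with GC boxes (GGGCGG on either strand) in capitals. The *Mmp14* window is chr14:54431348-54431597 (plus strand), the *Timp2* window chr11:118355412-118355661 (minus strand), and the *Mmp23* window chr4:155653385-155653634 (minus strand), which precedes the more upstream of its 2 RefSeq starts. The *Mmp23* transcript whose TPM are given starts at the other, 155653290, and its own window, chr4:155653291-155653540, is not printed.
Mmp14: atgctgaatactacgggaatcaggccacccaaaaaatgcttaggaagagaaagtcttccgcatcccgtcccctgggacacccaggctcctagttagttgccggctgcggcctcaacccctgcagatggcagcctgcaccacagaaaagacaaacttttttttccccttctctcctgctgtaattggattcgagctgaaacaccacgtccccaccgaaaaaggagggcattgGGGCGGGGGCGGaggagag
Timp2: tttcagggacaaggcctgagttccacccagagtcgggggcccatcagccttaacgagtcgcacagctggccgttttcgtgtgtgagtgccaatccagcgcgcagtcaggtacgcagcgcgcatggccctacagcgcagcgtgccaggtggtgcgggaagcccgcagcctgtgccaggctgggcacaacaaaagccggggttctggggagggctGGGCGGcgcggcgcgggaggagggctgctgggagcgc
Mmp23: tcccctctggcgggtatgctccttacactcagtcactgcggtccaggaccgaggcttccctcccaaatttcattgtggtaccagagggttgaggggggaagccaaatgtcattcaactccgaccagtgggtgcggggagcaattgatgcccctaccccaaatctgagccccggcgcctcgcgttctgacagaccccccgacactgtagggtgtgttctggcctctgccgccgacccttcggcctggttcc
The *Mmp14* window held 2 GC boxes, lying end to end near its start site, and the *Timp2* window held 1, while neither *Mmp23* window held any. Of the windows not printed, those of *Timp1* and *Timp3* held 1 each and those of *Mmp3* and *Timp4* none. A GC box was present in 32.7% of all 32851 upstream windows of the same length. AP-1 sites (TGANTCA), which were searched because several metalloproteinase promoters are known to carry them, were in 6.75% of all windows and, among the 8 windows of 7 member genes read here, in that of *Mmp3* alone. The *Mmp3* window also held the only TATAAA among the 8, against 12.4% of all windows. CCAAT boxes, present in 33.8% of all windows, numbered 2 upstream of *Mmp14* and 1 each upstream of *Timp1* and *Timp2*. Both strands were searched for each motif. Windows of *Mmp2*, *Mmp9* and *Mmp19* were not analysed here.

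*Timp3*, which is held in the matrix and also blocks ADAM proteases, was the most abundant of the 10 transcripts in every group. In RT WT libraries it had 91.5 ± 28.5 TPM (SD, n = 3), followed by *Timp4* (32.2 ± 7.95), *Mmp19* (17.1 ± 0.573), *Mmp2* (10.6 ± 0.886), *Timp2* (10.1 ± 0.959), *Mmp14* (3.79 ± 0.825), *Mmp23* (3.54 ± 1.13), *Mmp9* (0.855 ± 0.173), *Mmp3* (0.820 ± 0.0466) and *Timp1* (0.328 ± 0.186). In this order the neighbours *Mmp2* and *Timp2*, *Mmp14* and *Mmp23*, and *Mmp9* and *Mmp3* overlapped between libraries, and the other neighbours did not. The order differed most in TN *Txnip*-/- libraries, where *Mmp2* (29.5 ± 1.66 TPM) stood beside *Timp4* (29.3 ± 5.16) and *Timp2* (27.2 ± 1.78), and where *Mmp14* (18.5 ± 1.15) and *Mmp23* (18.3 ± 3.85) both exceeded *Mmp19* (12.1 ± 0.864). *Mmp2*, *Timp4* and *Timp2* overlapped in that group, as did *Mmp14* and *Mmp23*. *Timp1*, the lowest transcript in the other 3 groups, was there at 3.68 ± 1.78 TPM, above the means of *Mmp3* and *Mmp9* but overlapping both.

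**Figure D1:**
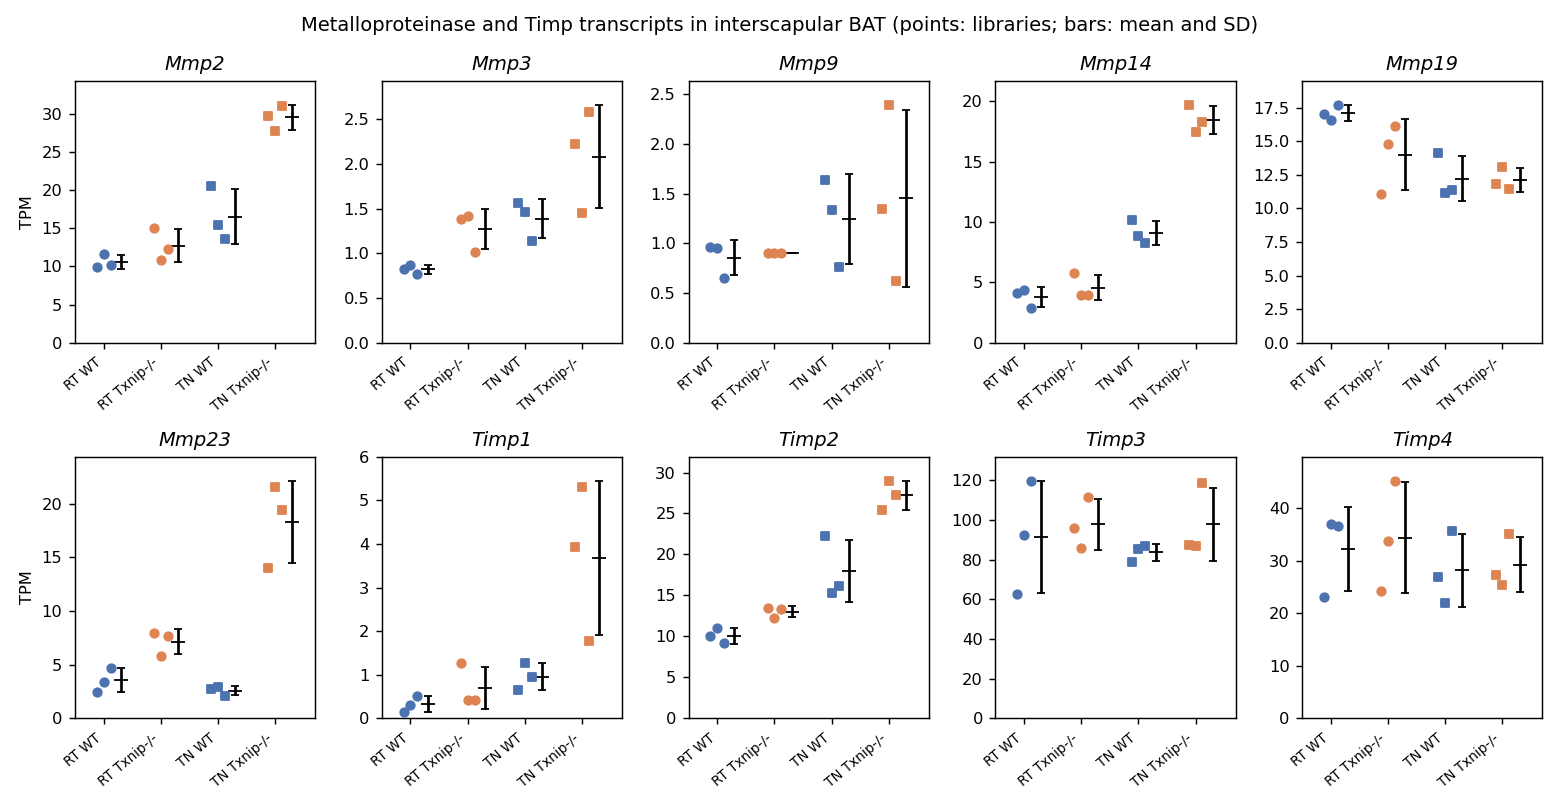
TPM of each of the 10 genes (vertical axes, each from 0) in the 12 libraries, grouped along the horizontal axis by temperature and genotype. Points are libraries and bars are the mean and SD of 3 libraries. *Mmp2*, *Mmp14*, *Mmp23*, *Timp1* and *Timp2* reach their highest values in TN *Txnip*-/- libraries, while *Timp4* overlaps between all groups and *Timp3* between all but the genotypes at TN, which a narrow gap separates.

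The first comparison asked how the 10 transcripts differed without *Txnip* in mice kept at RT. *Mmp23*, a membrane-bound enzyme that is released when its own anchor is cut, had 2.49, 3.39 and 4.73 TPM in the RT WT libraries and 7.93, 5.81 and 7.66 TPM in the RT *Txnip*-/- libraries. Every *Txnip*-/- library lay above every WT library. The difference in log2(TPM + 1) was 0.86 ± 0.19 (SE), which did not pass the test over all genes (limma, adjusted p = 0.085), and it was 0.39 with the authors' log2-scale values, which count another transcript of the gene (limma, adjusted p = 0.0776). Without RT WT replicate 3, the WT library with the most *Mmp23*, the difference was 1.04 and passed (limma, adjusted p = 0.0429).

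Among the other proteases at RT, *Mmp3*, a stromelysin that cuts many matrix proteins, was at 0.823, 0.865 and 0.772 TPM in WT and at 1.38, 1.42 and 1.02 TPM in *Txnip*-/- libraries, again with no overlap. *Mmp19*, an enzyme of basement membrane proteins, was the only member whose *Txnip*-/- libraries (11.1, 14.8 and 16.1 TPM) all lay below the WT libraries (17.04, 16.6 and 17.7 TPM). The differences were 0.32 ± 0.11 for *Mmp3* and -0.29 ± 0.13 for *Mmp19* on the log2 scale (limma, adjusted p = 0.239 and 0.34). *Mmp2* and *Mmp14* overlapped between the genotypes, with differences of 0.24 ± 0.12 and 0.21 ± 0.18 (limma, adjusted p = 0.409 and 0.617).

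Of the inhibitors at RT, *Timp2*, which blocks *Mmp2* and also takes part in its activation by *Mmp14*, was at 10.1, 11.1 and 9.13 TPM in WT and at 13.5, 12.2 and 13.3 TPM in *Txnip*-/- libraries. The groups did not overlap, and the difference of 0.34 ± 0.09 did not pass the test (limma, adjusted p = 0.124). *Timp3* and *Timp4* differed by 0.14 ± 0.22 and 0.08 ± 0.25 (limma, adjusted p = 0.81 and 0.921). *Mmp9* and *Timp1* were below the mean of 1 TPM required for the test. *Mmp9* ranged from 0.655 to 0.960 TPM over the 6 libraries, and *Timp1* from 0.152 to 0.522 in WT and from 0.419 to 1.26 TPM in *Txnip*-/- libraries.

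At RT, 8 of the 10 members were thus tested and 0 were called, where a call requires a limma adjusted p under 0.05 with a fold change below 0.8 or above its inverse. Over all 11980 genes tested, 1.49% were called. An unadjusted p under 0.05 was found for *Mmp23*, *Timp2* and *Mmp3*, and for 16% of all genes. *Mmp3* passed the filter only through the *Txnip*-/- libraries, where it was higher, with a mean of 0.820 TPM in WT and 1.27 TPM in *Txnip*-/- libraries, so its p is not counted for the members. The groups were apart for 3 members above and 1 below, beside 15.1% and 7.58% of all genes tested. The summed skeletal muscle and macrophage markers were both higher in these *Txnip*-/- libraries, 6 of 6 tested muscle markers and 2 of 7 tested macrophage markers being called, and their part in the members' values was not tested.

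The second comparison was that of the genotypes at TN, the contrast from which *Mmp23* was chosen. In WT libraries *Mmp23* was at 2.7, 2.91 and 2.09 TPM, and in *Txnip*-/- libraries at 14.03, 21.5 and 19.4 TPM. The lowest *Txnip*-/- library held several times as much as the highest WT library, and the difference in log2(TPM + 1) was 2.42 ± 0.16 (SE). It ranged from 1.35 with the authors' log2-scale values, which count another *Mmp23* transcript, to 2.78 with a pseudocount of 0.1. *Mmp14*, a collagenase at the cell surface that activates pro-*Mmp2*, was at 10.1, 8.83 and 8.29 TPM in WT and at 19.7, 17.5 and 18.3 TPM in *Txnip*-/- libraries. *Mmp2*, a gelatinase, was at 20.5, 15.5 and 13.5 TPM in WT and at 29.7, 27.8 and 31.1 TPM in *Txnip*-/- libraries. Neither gene overlapped between the genotypes, and the differences were 0.95 ± 0.09 for *Mmp14* and 0.82 ± 0.14 for *Mmp2*.

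The other 3 proteases overlapped at TN. *Mmp3* was at 1.56, 1.47 and 1.14 TPM in WT and at 2.23, 1.45 and 2.58 TPM in *Txnip*-/- libraries, a difference of 0.35 ± 0.16. *Mmp9*, the second gelatinase, spread from 0.622 to 2.39 TPM within the *Txnip*-/- libraries alone, and its difference was 0.08 ± 0.27. *Mmp19* ranged from 11.1 to 14.1 TPM in WT and from 11.4 to 13.1 TPM in *Txnip*-/- libraries, a difference near 0.

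Of the inhibitors at TN, *Timp1*, a secreted inhibitor known to be induced in inflamed tissue, was at 0.642, 1.27 and 0.950 TPM in WT and at 3.94, 5.31 and 1.78 TPM in *Txnip*-/- libraries. *Timp2* was at 22.3, 15.3 and 16.2 TPM in WT and at 25.5, 29.0 and 27.2 TPM in *Txnip*-/- libraries. The groups were apart for both genes, and the differences were 1.19 ± 0.28 and 0.59 ± 0.13. That of *Timp1* ranged from 0.36 with the authors' log2-scale values to 1.76 with a pseudocount of 0.1. *Timp3* was also apart, by a margin of less than 1 TPM between 86.8 TPM in the highest WT and 87.1 TPM in the lowest *Txnip*-/- library, and differed by 0.21 ± 0.12. *Timp4*, an inhibitor known for its high levels in heart, ranged from 21.955 to 35.7 TPM in WT and from 25.4 to 35.1 TPM in *Txnip*-/- libraries, a difference of 0.07 ± 0.18.

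All 10 members passed the expression filter at TN, *Timp1* only through the *Txnip*-/- libraries. The groups were apart for 6 members (*Mmp2*, *Mmp14*, *Mmp23*, *Timp1*, *Timp2* and *Timp3*), all above, beside 17.7% of 12891 genes. Nothing is read from this count, since the list was chosen with this contrast known.

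**Figure D2:**
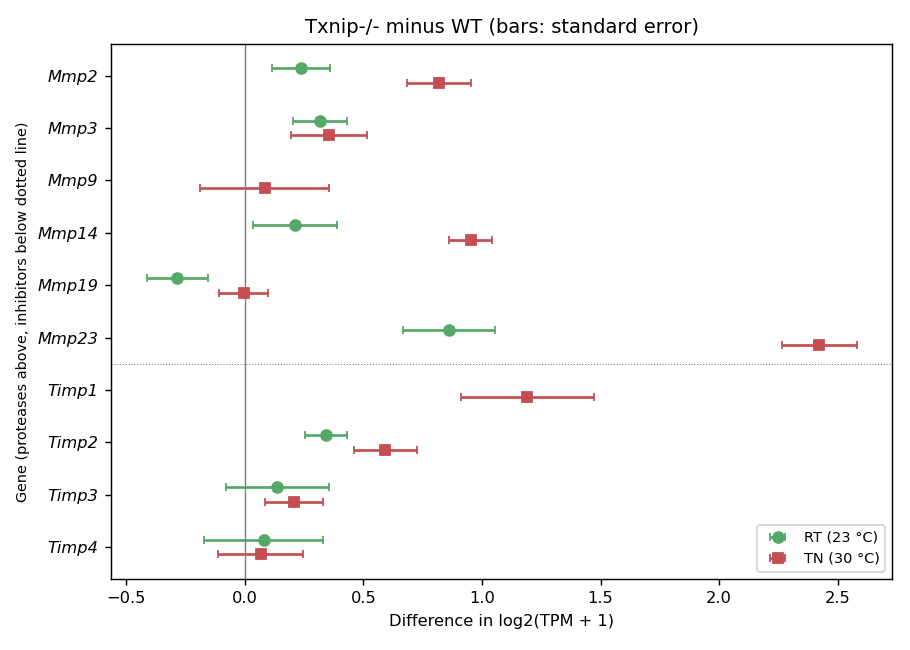
Differences in log2(TPM + 1), *Txnip*-/- minus WT (horizontal axis), for each gene (vertical axis), at RT (circles) and TN (squares), with bars for the standard error of the limma fit. *Mmp9* and *Timp1* have no RT value because they were below the filter. *Mmp23* has the largest difference of the 8 genes tested at RT, 0.86. At TN it has the largest of the 10, 2.42, in the contrast by which it was chosen.

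Whether the genotype difference itself differed between the temperatures was tested on all 12 libraries. The TN difference exceeded the RT difference by 1.56 ± 0.27 (SE) on the log2 scale for *Mmp23*, given with no p since the TN libraries chose the gene. It was larger at TN by 0.74 ± 0.21 for *Mmp14* and by 0.58 ± 0.20 for *Mmp2*, neither past the threshold (limma, adjusted p = 0.204 and 0.281). For *Timp1* it was larger by 0.86 ± 0.39, given with no p because this gene reached the mean of 1 TPM over the 12 libraries only through TN *Txnip*-/- (3.68 TPM, the other group means lying between 0.328 and 0.955 TPM). For *Timp2* and *Mmp19* the values were 0.25 and 0.28 (limma, adjusted p = 0.566 and 0.531). For *Mmp3*, *Mmp9*, *Timp3* and *Timp4* they lay between -0.01 and 0.07, with a sign that turned on leaving out single libraries. Of the 10 members 0 were called by limma, beside 1 of 12486 genes (0.00801%). Leaving *Mmp23* and *Timp1* aside, the unadjusted p was under 0.05 for *Mmp14* and *Mmp2*, and it was so for 12.6% of all genes.

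The third comparison was that of the temperatures within WT mice, which shares its TN WT libraries with the contrast by which *Mmp23* was chosen. *Mmp14* rose at TN by 1.08 ± 0.15 on the log2 scale, from 4.13, 4.40 and 2.85 TPM at RT to the TN values above (limma, adjusted p = 0.000253). *Timp2* rose by 0.76 ± 0.12 (limma, adjusted p = 0.000563) and *Mmp2* by 0.58 ± 0.14, from 9.94, 11.6 and 10.2 TPM at RT (limma, adjusted p = 0.0055). The TN and RT libraries of these 3 genes did not overlap. *Mmp19* fell by 0.46 on the log2 scale (SE 0.12, limma, adjusted p = 0.00933), with 11.1 to 14.1 TPM in the TN libraries and 16.6 to 17.7 TPM in the RT libraries. Markers of other cells were higher at TN in the same mice, 5 of 7 tested fibroblast markers and 7 of 8 macrophage markers being called, with medians of 0.60 and 1.08 on the log2 scale, and their part in these differences was not tested.

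*Mmp3* rose in WT by 0.39 ± 0.14 (limma, adjusted p = 0.0383), from 0.772 to 0.865 TPM at RT to 1.14 to 1.56 TPM at TN. This call was lost on leaving out any WT library except TN WT replicate 3 (differences of 0.34 to 0.41, limma, adjusted p = 0.0675 to 0.109). *Timp1*, which was tested only through its TN *Txnip*-/- libraries, differed by 0.55 ± 0.28 with no overlap between the temperatures, and was not called with no filter (limma, adjusted p = 0.159). *Mmp9*, which passed the filter only through its TN libraries, *Timp4* and *Timp3* differed by 0.26, -0.18 and -0.08 (limma, adjusted p = 0.359, 0.555 and 0.758). *Mmp23* differed by -0.33 ± 0.19 with overlap between the temperatures, given with no p.

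Temperature moved many genes. In WT 37.8% of 12486 genes were called, 31.4% higher and 6.39% lower at TN, and of the members *Mmp14*, *Timp2*, *Mmp2* and *Mmp3* were called higher and *Mmp19* lower. The temperatures were apart for 5 members above, *Timp1* among them, and 1 below, beside 45.5% and 12% of all genes. The median of all tested genes lay 0.18 above 0 on the log2 scale in WT and 0.15 above 0 in *Txnip*-/- mice, so the members' values are to be read against that shift. With the median of each library set equal, 51.1% of the called genes in WT were higher at TN, compared with 83.1% without it. Under that centring *Mmp14*, *Timp2* and *Mmp2* remained called higher and *Mmp19* called lower in WT, while *Mmp3* at 0.20 was no longer called (limma, adjusted p = 0.257).

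In *Txnip*-/- mice the rise of *Mmp14* at TN was 1.83 ± 0.15 on the log2 scale, from 5.76, 3.91 and 3.99 TPM at RT (limma, adjusted p = 9.51e-06). *Mmp2* rose by 1.17 ± 0.14, from 15.1, 10.8 and 12.3 TPM (limma, adjusted p = 6.65e-05), and *Timp2* by 1.01 ± 0.12 (limma, adjusted p = 6.16e-05). *Timp1* was 1.42 ± 0.28 higher at TN, the group through which alone it passed the filter, and it was also called in a fit with no filter (limma, adjusted p = 0.00327). All TN libraries lay above all RT libraries for these 4 genes. In these mice 6 of 7 tested fibroblast markers and 8 of 8 macrophage markers were also called higher at TN, with medians of 1.16 and 1.42 on the log2 scale, and their part in the members' values was not tested. *Mmp23* was 1.24 ± 0.19 higher at TN, given with no p, whereas in WT the same gene overlapped between the temperatures. *Mmp3* rose by 0.43 ± 0.14 (limma, adjusted p = 0.0246). The call of *Mmp3* was lost under centring (0.24, limma, adjusted p = 0.177) and on leaving out RT *Txnip*-/- replicate 3 or TN *Txnip*-/- replicate 1 or 3 (0.31 to 0.39, limma, adjusted p = 0.081 to 0.102).

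*Mmp19*, *Mmp9*, *Timp4* and *Timp3* were not called between the temperatures in *Txnip*-/- mice, with differences of -0.18, 0.30, -0.20 and -0.01 (limma, adjusted p = 0.239, 0.286, 0.524 and 0.972). *Mmp19* passed as lower at TN with centring (-0.37, limma, adjusted p = 0.0361) and without RT *Txnip*-/- replicate 1 (-0.33, limma, adjusted p = 0.0206), the library in which it was lowest at RT. *Mmp9* passed the filter only through its TN libraries, with means of 0.855 TPM in RT WT and 0.903 TPM in RT *Txnip*-/-. Without TN *Txnip*-/- replicate 3, its lowest TN library, its difference was 0.57, given with no p for that reason. Leaving *Mmp23* and *Timp1* aside, 4 members were called, all higher (*Mmp14*, *Mmp2*, *Timp2* and *Mmp3*), beside 39.2% of all genes called and 30.9% called higher. These 4 were apart, as were *Mmp23* and *Timp1*, beside 44.1% of all genes apart in that direction. Centring changed the share of higher calls over all genes in this comparison from 78.9% to 48.5%. The comparison shares its TN libraries with the genotype contrast at TN.

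**Figure D3:**
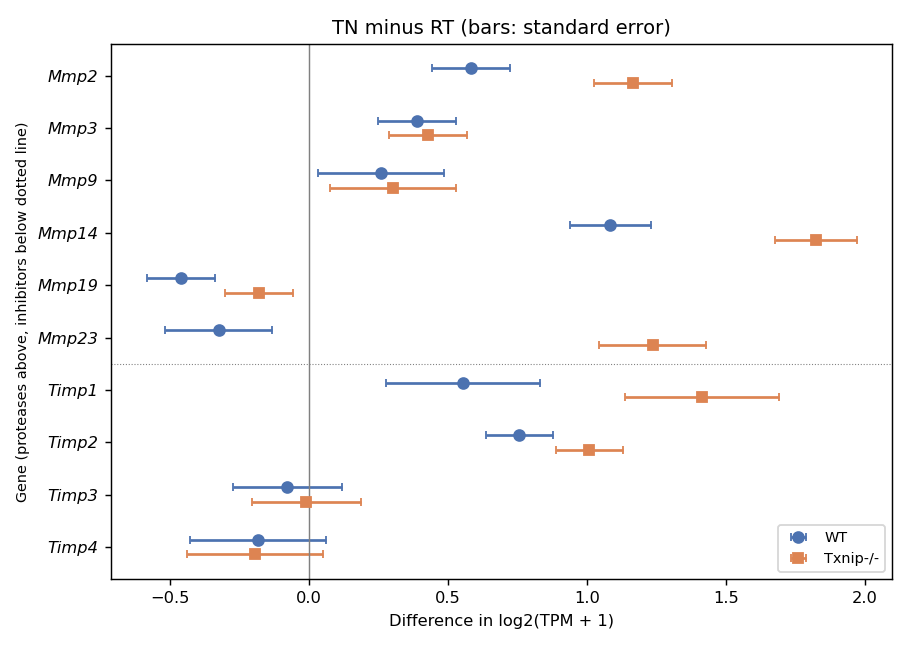
Differences in log2(TPM + 1), TN minus RT (horizontal axis), for each gene (vertical axis), in WT (circles) and *Txnip*-/- mice (squares), with bars for the standard error of the limma fit. *Mmp14*, *Timp2* and *Mmp2* lie to the right of 0 in both genotypes. *Mmp23* lies at 1.24 in *Txnip*-/- mice and at -0.33 in WT, where its libraries overlap between the temperatures.

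Proteases and inhibitors were then compared as totals, as a description with no test. The 6 protease transcripts summed at RT to 36.7 ± 1.20 TPM (SD, n = 3) in WT and 40.6 ± 2.55 in *Txnip*-/- libraries, and at TN to 43.02 ± 6.94 and 81.97 ± 2.67 TPM. The sum in each TN *Txnip*-/- library (78.9, 83.7 and 83.4 TPM) exceeded that in every other library, the highest of which had 50.7 TPM. The 4 Timp transcripts summed to 134 ± 35.4, 146 ± 21.3, 131 ± 7.95 and 158 ± 21.8 TPM in the same order, and *Timp3* alone made up 61.6% to 67.7% of the inhibitor total on average. The ratio of proteases to inhibitors was 0.287 ± 0.0748 in WT and 0.281 ± 0.0330 in *Txnip*-/- libraries at RT, and 0.331 ± 0.0640 and 0.524 ± 0.0608 at TN. All 3 TN *Txnip*-/- libraries (0.455 to 0.570) lay above all others, but this rests on *Mmp23*, the gene chosen by its TN values. Without it the ratio was 0.350 to 0.450 in TN *Txnip*-/- and 0.251 to 0.373 in TN WT libraries, which overlap. The protease total without *Mmp23* was 62.2 to 64.9 TPM in TN *Txnip*-/- libraries and at most 47.99 TPM in any other.

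**Figure D4:**
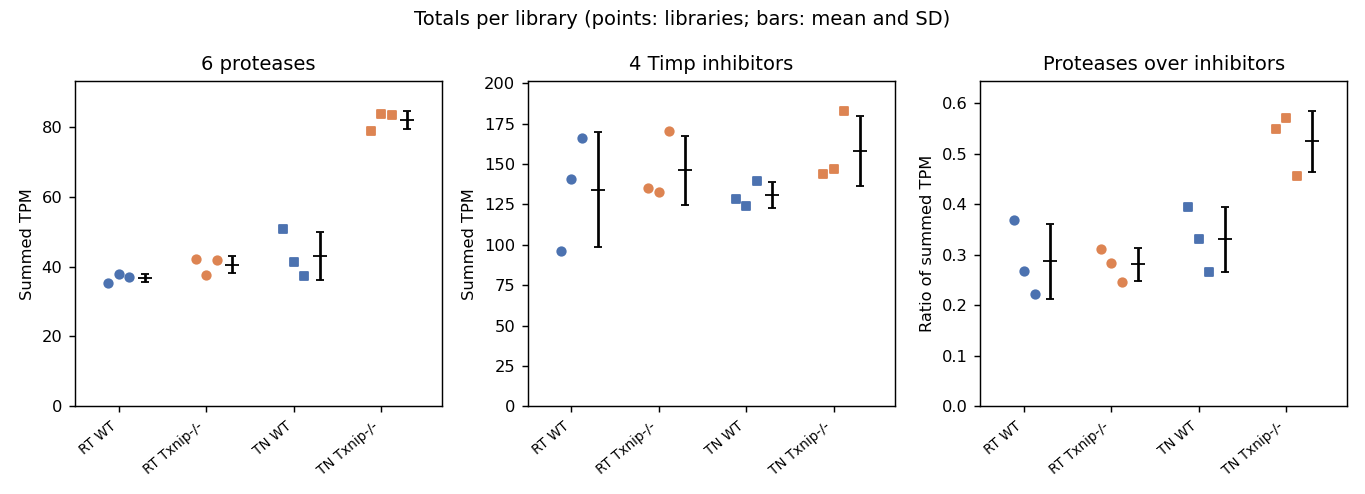
Summed TPM of the 6 proteases, summed TPM of the 4 Timp inhibitors, and their ratio (vertical axes, from 0) in the 12 libraries by group. Points are libraries and bars are the mean and SD of 3 libraries. TN *Txnip*-/- libraries stand apart in the protease total and the ratio, at 0.455 to 0.570, whereas their inhibitor total (144 to 183 TPM) overlaps that of both RT groups and lies above that of TN WT (124 to 140 TPM), and without *Mmp23* their ratio of 0.350 to 0.450 overlaps that of TN WT libraries.

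The makeup of the protease total differed between the groups. *Mmp19* made up 46.7% ± 2.41 (SD, n = 3) of the protease transcripts in WT and 34.7% ± 7.26 in *Txnip*-/- libraries at RT, and 28.5% ± 1.84 and 14.8% ± 0.981 at TN. *Mmp23* made up 9.62% ± 2.94, 17.5% ± 1.81, 6.004% ± 0.931 and 22.2% ± 4.05 in the same order. Within pairs known to act together, the ratio of *Mmp2* to *Timp2* stayed between 0.837 and 1.17 in all 12 libraries. That of *Mmp14* to *Timp2* was 0.373 ± 0.0529 in WT and 0.348 ± 0.0684 in *Txnip*-/- libraries at RT, and 0.515 ± 0.0600 and 0.682 ± 0.0871 at TN, the TN libraries of each genotype lying above its RT libraries.

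Fibroblast and macrophage markers moved with several members, and their part in the members' differences was not tested. At TN 5 of 7 tested fibroblast markers and 8 of 8 macrophage markers were called higher in *Txnip*-/- libraries. The fibroblast sum is weighted to *Ly6a*, which averaged 67.0 TPM in RT WT libraries, where the sum averaged 146 TPM. Its markers also moved unequally. *Cd34* rose by 1.42 with temperature in WT, where the median of the tested markers was 0.60. *Pi16* differed by -0.34 between the genotypes at TN, with overlap. Whether other cells contribute to this sum was not tested, so it is not a measure of fibroblasts alone. Per 100 TPM of the 8 fibroblast markers, *Mmp2* was at 7.22 and 7.13 TPM on average in WT and *Txnip*-/- libraries at RT and at 7.005 and 7.73 TPM at TN, and *Timp2* at 6.90, 7.32, 7.62 and 7.11 TPM in that order. On that scale the 4 groups overlapped for *Mmp2*, and the 2 genotypes at TN overlapped for *Timp2*. With *Col1a1* left out of the markers, the genotypes at TN still overlapped for both, while *Mmp2* was at 9.49 to 11.8 in TN *Txnip*-/- and at 8.22 to 8.86 in RT WT libraries, which do not overlap. *Mmp14* was at 2.59, 2.56, 3.86 and 4.83 TPM per 100 TPM of these markers, and its TN libraries (3.64 to 5.13) lay above all RT libraries (1.99 to 3.20). On the same scale the genotypes at TN did not overlap for *Mmp14* (3.64 to 4.24 in WT, 4.32 to 5.13 in *Txnip*-/-), nor with *Col1a1* left out (4.14 to 5.20 and 5.97 to 6.96). Per 100 TPM of macrophage markers, the genotypes at TN overlapped for *Mmp2* (5.74 to 15.4 in WT, 5.19 to 8.13 in *Txnip*-/-), for *Timp2* (6.86 to 16.7 and 5.21 to 7.12) and for *Mmp14* (3.51 to 7.62 and 3.26 to 4.78), and *Mmp2* was at 14.6 to 18.7 in RT WT libraries.

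*Mmp23* was at 2.42, 3.999, 1.09 and 4.77 TPM per 100 TPM of the fibroblast markers, and each *Txnip*-/- library lay above the WT libraries of its temperature. With *Col1a1* left out of the markers, the *Txnip*-/- values of *Mmp23* were still 4.13 to 5.62 at RT and 4.93 to 7.38 at TN, against 2.09 to 3.82 and 1.04 to 1.47 in WT. Per 100 TPM of macrophage markers the genotypes overlapped for *Mmp23* at RT (4.09 to 6.77 in WT, 4.65 to 5.71 in *Txnip*-/-) and did not at TN (0.886 to 2.03 in WT, 2.87 to 5.07 in *Txnip*-/-). *Timp1* overlapped between the genotypes at TN on both scales, but not with *Col1a1* left out of the fibroblast markers (0.329 to 0.642 in WT, 0.679 to 1.81 in *Txnip*-/-).

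**Figure D5:**
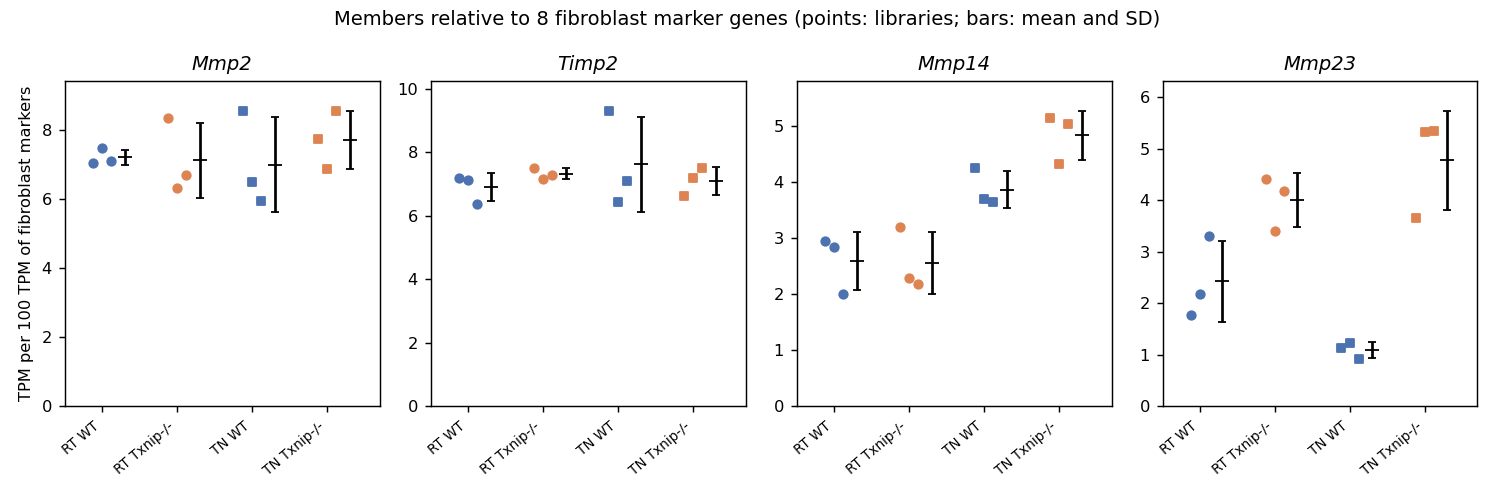
*Mmp2*, *Timp2*, *Mmp14* and *Mmp23* in TPM per 100 TPM of 8 fibroblast markers (vertical axes, from 0) in the 12 libraries by group. Points are libraries and bars are the mean and SD of 3 libraries. *Mmp2* has group means between 7.005 and 7.73, whereas *Mmp23* has higher values in *Txnip*-/- than in WT libraries at each temperature.

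The other genes of the pathway were counted from lists that were written with earlier results known, and are to be read beside the 8.66% of 12891 genes called between the genotypes at TN and the 6.49% called higher. Of 17 other metalloproteinases 7 were expressed enough to test at TN and 1 was called between the genotypes, *Mmp12*, the macrophage elastase, which averaged 3.26 ± 2.37 TPM in WT and 21.2 ± 6.47 TPM in *Txnip*-/- libraries. Of 9 activators and cofactors 8 were tested and 2 were called higher, the proprotein convertase *Pcsk5* (0.58) and *Bsg* (0.57), the inducer of metalloproteinases also called basigin. Of 12 other inhibitors and clearance receptors 7 were tested and 1 was called higher, the matricellular protein *Thbs2* (0.68). Of 19 ADAM and ADAMTS proteases 17 were tested and 6 were called higher, led by *Adam8* (1.16) and the procollagen peptidase *Adamts2* (0.76).

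Among 21 matrix proteins that these enzymes cut or that make up the mesh, 20 were tested at TN and 14 were called higher in *Txnip*-/- libraries, led by *Col1a1* (1.48), *Col3a1* (1.35) and *Col1a2* (1.23). The median difference of these 20 was 0.90, beside 0.59 for the 6 proteases, 0.40 for the 4 Timp genes and 0.01 for all genes tested. The protease median includes *Mmp23* (2.42), which this contrast chose. The other proteases differed by 0.95 (*Mmp14*), 0.82 (*Mmp2*), 0.35 (*Mmp3*), 0.08 (*Mmp9*) and -0.005 (*Mmp19*). Nothing is therefore read from the order of the protease and Timp medians. At RT, 0 of the 49 tested genes of these 5 lists were called by limma between the genotypes, and 14 had an unadjusted p under 0.05, beside 1.49% of all genes called and 16% at an unadjusted p under 0.05.

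Between the temperatures in WT, where 31.4% of all genes were called higher, 2 of 5 tested other metalloproteinases were called, both higher at TN, *Mmp12* (1.79) and the stromelysin *Mmp11* (1.69). *Mmp11* rose from 1.28 ± 0.504 to 6.32 ± 1.34 TPM. Of 8 activators 3 were called higher, a share near that of all genes, namely the plasminogen activators *Plau* (0.79) and *Plat* (0.77) and the receptor *Plaur* (0.56). Of 7 other inhibitors 3 were called higher, *Serpine2* (0.49), *Thbs2* (0.47) and *Reck* (0.37), a membrane-anchored inhibitor of metalloproteinases. Of 15 tested ADAM and ADAMTS proteases 8 were called higher, led by *Adam8* (0.80) and *Adam19* (0.78), and 1 lower, *Adam12* (-1.08). The matrix list had 15 genes called higher and 1 lower, *Lamb1* (-0.89), of 20 tested. Some of these called genes averaged below 1 TPM in RT WT libraries and were tested through groups in which they were higher. They were *Mmp12* (0.0913 TPM), *Adam8* (0.466), *Thbs2* (0.563), *Adamts7* (0.845) and *Adamts15* (0.630). Their calls, and the counts that hold them, are to be read with that limit.

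Among 12486 genes, those whose levels ran most closely with each member over the 12 libraries were found by Pearson's r of log2(TPM + 1), which is given as a description since the libraries share their groups. For *Mmp2* they were the fibrillar collagen genes *Col3a1* (r = 0.99), *Col5a2* (0.99) and *Col5a1* (0.99), and *Col5a1* also came first for *Mmp14* (0.99). *Timp2* ran with *Fstl1* (0.99) and *Dpt* (0.99), of which *Dpt* is one of the fibroblast markers, and with the protease *Adamts2* (0.99). *Mmp23* ran with *Tdrp* (0.98), *Dpep1* (0.96) and *Fbln5* (0.96), and *Timp1* with *P3h2*, *Clec4n* and *Cfp* (0.97 to 0.98). *Mmp19* ran with *Lrp10* (0.97). The values were lower for *Mmp3* (0.94, *Scn7a*), *Timp3* (0.94, *Lrrc8c*), *Mmp9* (0.89, *Tmem164*) and *Timp4* (0.84, *Tepsin*).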

How the data were processed

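BAT RNA was poly-A selected and sequenced as single-end reads. The authors aligned the reads to mm10 with STAR 2.7.5a, counted them on exons with HOMER 4.11.1, keeping 1 transcript per gene, and deposited TPM of every library, on which all results here rest. Listed genes hold 55.4% to 57.6% of the total to which each library's TPM are scaled. For each temperature the authors also deposited log2-scale values of its 6 libraries, normalized by a transform that is not named, which served only as an alternative, and for *Mmp23* these count another transcript. The fold changes and p-values of the authors' DESeq2 comparison in those tables were not used. Precision rests on the spread between libraries.

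Tests were run on log2(TPM + 1), which makes differences of genes near 1 TPM smaller than their TPM ratio. Genes with a mean of at least 1 TPM in the libraries fitted were tested with limma 3.58.1 in R 4.3.3 (with trend) and Benjamini-Hochberg adjustment over all genes tested. Genotypes were compared on the 6 libraries of each temperature, and temperatures and the interaction on all 12 with 4 group means. Calls required an adjusted p under 0.05 and, except for the interaction, a fold change below 0.8 or above its inverse. The scripts were tested on simulated data. All 10 members are named, and of the other lists up to 5 called genes per list and comparison by size. The members and lists were chosen with earlier results of these data known. Alternatives were a pseudocount of 0.1, no filter, median centring, a block for replicate numbers, a joint fit of all 12 libraries, the authors' log2-scale values, and each library left out, with the protease total without *Mmp23* added after the data were seen. Upstream sequences came from RefSeq (GRCm38.p6) by gene symbol, with windows for 7 of the 10 members, trimmed to the 250 bases before the start. Gene overlaps came from GENCODE on the same build. Figures were drawn with matplotlib 3.10.9.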

Additional observations from a re-analysis of the deposited data

How the results depend on the processing

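With 3 libraries per group and TPM alone, small differences and genes near 1 TPM were poorly resolved. Over all genes, the calls between genotypes at RT (178) numbered 44 with no filter, 100 with the replicate block and 272 with all 12 libraries in 1 fit. In that joint fit the difference of *Mmp23* was 0.86, given with no p since its variance draws on the TN libraries that chose the gene. Over the alternatives its limma adjusted p at RT ranged up to 0.239. The calls between genotypes at TN (1116) numbered 621 with no filter. In that contrast, which chose *Mmp23*, calls of the members are not counted. Leaving out 1 library gave 2 to 159 calls at RT (2 without RT WT replicate 2) and 456 to 1005 at TN (456 without TN *Txnip*-/- replicate 1), 4094 to 4775 between temperatures in WT, 4303 to 5127 in *Txnip*-/- mice and 1 to 6 in the interaction. The members called were then 0 to 1 at RT, 3 to 4 at TN, 4 to 6 and 5 to 7 between the temperatures in WT and *Txnip*-/- mice (*Mmp23* and *Timp1* included), and 0 in every such fit of the interaction. The group mean of the protease to inhibitor ratio, with 1 library of the group left out, was 0.246 to 0.319 in RT WT, 0.265 to 0.298 in RT *Txnip*-/-, 0.299 to 0.363 in TN WT and 0.502 to 0.559 in TN *Txnip*-/- libraries. With all libraries and without *Mmp2* and *Timp3* the mean was 0.628, 0.592, 0.573 and 0.873 in that order, and without *Mmp23*, a setting chosen after seeing the data, 0.261, 0.232, 0.311 and 0.408.

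Replicate numbers did not pair the libraries: same-numbered RT WT and RT *Txnip*-/- libraries deviated from their group means with r of 0.297, -0.0221 and 0.210 across genes, and at TN with 0.0420, 0.0228 and -0.0362. With the block, *Mmp3* between temperatures in WT (0.39, limma, adjusted p = 0.0539) lost its call, and no other member's call changed outside the genotype contrast at TN, where *Timp2* kept its difference of 0.59. *Mmp3* in WT also lost its call with no filter (limma, adjusted p = 0.0539), and *Timp1* between temperatures in WT, which was tested only through its TN *Txnip*-/- libraries, gained one with a pseudocount of 0.1 (1.35, limma, adjusted p = 0.0397) and without TN *Txnip*-/- replicate 3 (limma, adjusted p = 0.0434).

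Signs turned only for differences of at most 0.20 in size. The interaction of *Mmp3* was -0.04 with a pseudocount of 0.1. Leaving out 1 library gave -0.11 to 0.35 for *Timp3* and -0.14 to 0.30 for *Timp4* between genotypes at RT. At TN it gave -0.06 to 0.10 for *Mmp19*, -0.18 to 0.35 for *Mmp9* and -0.09 to 0.25 for *Timp4*. Between temperatures it gave -0.32 to 0.14 for *Timp3* in WT, and -0.16 to 0.09 for *Timp3* and -0.42 to 0.02 for *Timp4* in *Txnip*-/- mice. In the interaction it gave -0.08 to 0.20 for *Mmp3*, -0.12 to 0.31 for *Mmp9*, -0.15 to 0.31 for *Timp3* and -0.23 to 0.21 for *Timp4*. The cause of these changes was not tested.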
